A study of Homo sapiens with 6 samples.

Results

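A group of 10 oncofetal and stem-like hepatoma markers was followed in Huh7 cells after an ITGB5 knockdown: AFP, SPINK1, IGF2, GPC3, EPCAM, CD24, PROM1, DLK1, SOX9 and SALL4. The 10 genes were chosen by name, as known markers, and no threshold on measured values entered the rule. The genes were picked with earlier results of these data known. They make up 10 of the 58735 genes in the table. Their symbols stand on 11 rows, because IGF2 has a second row, and 9 of the 10 passed the low-count filter, among 16577 genes tested. Huh7 is an established human hepatocellular carcinoma line. In the shITGB5 group (3 libraries) the cells carried a short hairpin RNA against ITGB5, the integrin beta 5 subunit. In the shcontrol group (3 libraries) they carried a control hairpin. Both groups were grown in RPMI-1640 medium with fetal bovine serum, and directional libraries were made from total RNA, per the labels. All 6 libraries come from this single line, and neither the hairpin sequences nor their number is known from the sources used here. Column codes S and NC in the table were taken to mean ITGB5 hairpin and control hairpin, a reading with no label behind it. Nothing in the labels tells separate cultures from repeat libraries of 1 culture, so the p-values rest on a spread that may be technical.

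Oncofetal genes are active in the fetal liver, are largely silenced in the adult liver, and are found active again in many hepatocellular carcinomas. AFP and GPC3 are used as tumour markers in the clinic. EPCAM, PROM1 (CD133) and CD24 are surface proteins used to sort liver cancer cells with stem-like behaviour, and SALL4 and SOX9 are transcription factors of embryonic, fetal or biliary cells.

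The libraries held 16563911 to 18011313 counts with shITGB5 and 15777922 to 17476580 with shcontrol. ITGB5 itself, the targeted gene, was at 173.1, 181.0 and 174.3 CPM (counts scaled to library size with TMM factors) in the shITGB5 libraries, against 204.7, 213.8 and 216.9 CPM in the shcontrol libraries. All shITGB5 libraries lay below all shcontrol libraries. The change was -16.8% (95% interval -20.4 to -13.1%, edgeR quasi-likelihood test, Benjamini-Hochberg adjusted p = 2.85e-11). An exact two-sided permutation test of the ITGB5 values gave p = 0.1, the smallest that 3 libraries against 3 allow. Of the genes tested, 1416 were higher and 1153 lower at an adjusted p under 0.05 by edgeR, with a median fold of 1.16 among the 2569 called genes. The hepatocyte identity of the line was visible in both groups. The summed level of 7 hepatocyte lineage genes was 6003 to 6113 CPM with shITGB5 and 5369 to 5477 CPM with shcontrol, and 5 of these genes, albumin among them, were higher and none lower. Markers of endothelial cells summed to 4.73 to 5.69 CPM with shITGB5 and 3.61 to 5.82 CPM with shcontrol, with KDR at 0 counts in every library. Markers of blood cells summed to 40.4 to 42.9 CPM with shITGB5 and 37.7 to 38.0 CPM with shcontrol, with MS4A1 at 0 counts. Of 9 fibroblast and stellate markers, 6 were tested and 1 was higher, LUM (170.0 ± 2.14 CPM with shITGB5, 145.7 ± 2.51 with shcontrol, SD, n = 3 each). The 9 summed to 328 to 337 CPM with shITGB5 and 294 to 308 CPM with shcontrol. Their part in the results below was not tested.

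Of the 9 measured markers, AFP, SPINK1 and EPCAM were higher with shITGB5, CD24 and SOX9 were lower, and GPC3, PROM1, IGF2 and SALL4 did not pass the test. Over all genes tested, 8.54% were higher and 6.96% were lower. Among the 10071 genes with a mean of at least 10 CPM, which all 9 markers reach, these shares were 13.1% and 10.3%. In 5 of the 9 markers the groups did not overlap, a pattern seen in 28.5% of all genes. The median log2 change of the 9 was 0.03, and that of all genes tested was -3.64e-05. The changes were small, with the rise of AFP by 22.7% the largest of the 9, and the surface markers EPCAM and CD24 moved in opposite directions. In a bulk sample, fewer cells that express a gene and less RNA per cell cannot be told apart.

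**Figure D1:**
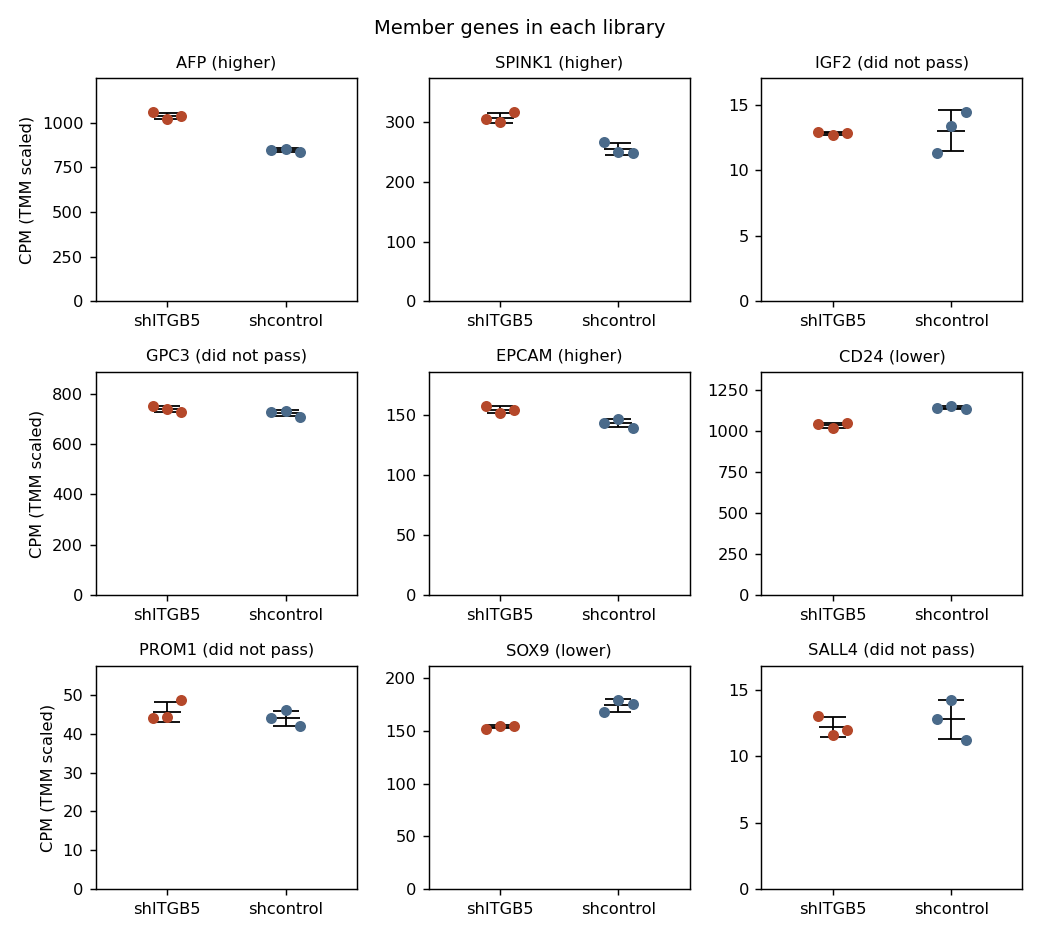
CPM of the 9 measured markers in each library (points), with the mean and SD of each group (bars), shITGB5 on the left and shcontrol on the right, each axis starting at 0. AFP, SPINK1 and EPCAM lie higher with shITGB5, CD24 and SOX9 lie lower, and the points of IGF2, GPC3, PROM1 and SALL4 overlap.

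The promoter sequences are shown for the secreted markers AFP and SPINK1, both higher, and the surface marker CD24, which was lower. They differ in base composition, whose link to the direction of change was not tested. Promoters of 300 bases, from 250 before to 50 after the start, were available from RefSeq (GRCh38.p14) for 4 of the 10 genes: AFP, SPINK1, PROM1 and CD24. All are written 5′ to 3′ on the strand of the gene, and capitals mark the motif matches named below. The AFP window lies at chr4:73435971-73436270 on the plus strand. Its start lies 5083 bases inside the 5′ end that the table gives for AFP. The SPINK1 window lies at chr5:147831622-147831921 on the minus strand, and the CD24 window, the first of 3 listed starts, at chr6:106975578-106975877 on the minus strand.
AFP: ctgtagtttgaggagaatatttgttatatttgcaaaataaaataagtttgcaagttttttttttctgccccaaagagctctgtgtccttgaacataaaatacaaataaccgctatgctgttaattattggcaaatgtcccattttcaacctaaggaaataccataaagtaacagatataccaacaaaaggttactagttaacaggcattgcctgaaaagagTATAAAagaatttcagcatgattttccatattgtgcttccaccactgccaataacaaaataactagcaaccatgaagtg
SPINK1: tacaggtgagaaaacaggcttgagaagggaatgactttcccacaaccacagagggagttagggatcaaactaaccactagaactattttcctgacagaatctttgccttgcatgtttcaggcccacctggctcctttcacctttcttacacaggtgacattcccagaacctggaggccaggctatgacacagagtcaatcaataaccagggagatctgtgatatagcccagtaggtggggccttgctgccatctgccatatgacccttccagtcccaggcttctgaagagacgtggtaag
CD24: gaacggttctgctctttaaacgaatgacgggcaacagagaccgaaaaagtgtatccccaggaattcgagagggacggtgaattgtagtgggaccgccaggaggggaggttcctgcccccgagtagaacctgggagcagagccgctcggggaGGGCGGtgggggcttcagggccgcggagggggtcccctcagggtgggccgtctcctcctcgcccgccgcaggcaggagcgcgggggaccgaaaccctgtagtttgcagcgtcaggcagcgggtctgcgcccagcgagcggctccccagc

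Motifs were searched on both strands by their letters alone. The AFP window held a TATA box (TATAAA) at bases -29 to -24 from the start, a motif found in 11.5% of the 35116 promoters. The CD24 window shown held a GC box (GGGCGG) at -99 to -94, found in 44.95% of promoters. Of the other CD24 windows, that of start 3 held a GC box and that of start 2 held none. Which start these cells use was not examined. The SPINK1 window held no TATA box, no GC box and no AP-1 motif (TGANTCA, with N for any base), the last found in 7.71% of promoters. AFP's window was 33.0% G or C, SPINK1's 49.3% and CD24's 66.7%, against a median of 58.7% over all promoters. The 4 windows of PROM1, which did not pass, were 60.7, 68.7, 69 and 56.3% G or C and are not shown. The ratio of observed to expected CpG was 0.123 for AFP, 0.0549 for SPINK1 and 0.767 for CD24, against a median of 0.579. These matches describe the letters of the windows.

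AFP (ENSG00000081051, chr4:73431138-73456174, plus strand) encodes the main serum protein of the fetus, a relative of albumin. It was at 1057.6, 1020.4 and 1035.2 CPM in the shITGB5 libraries, against 848.6, 854.6 and 834.1 CPM in the shcontrol libraries. Every shITGB5 library exceeded every shcontrol library, and the gap between the groups was wider than the range within either. AFP averaged 1038 ± 18.7 CPM with shITGB5 and 846 ± 10.5 CPM with shcontrol (SD, n = 3 each). The log2 change was 0.30 (SE 0.022), a rise of 22.7% (95% interval 19.1 to 26.4%, edgeR adjusted p = 1.50e-22). By size this was number 413 of the 1416 genes that were higher. AFP was among the most abundant transcripts of the line, at rank 77 of all tested genes by FPKM, the CPM divided by gene length in kilobases.

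Albumin, the adult counterpart of AFP, was also higher, at 3253 ± 34.5 CPM with shITGB5 and 2878 ± 45.3 CPM with shcontrol (log2 change 0.18, edgeR adjusted p = 5.24e-14). Per length, AFP reached 33.3, 32.8 and 33.0% of the albumin level in the shITGB5 libraries, against 30.3, 30.4 and 30.6% in the shcontrol libraries. The ratio of AFP to albumin thus lay higher in all shITGB5 libraries. The vitamin D binding protein gene GC and the afamin gene AFM, the other members of the family, did not pass, with log2 changes of -0.07 and -0.02.

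Of 12 transcription factors reported to act on AFP, 1 was higher and 2 were lower. The pioneer factor FOXA1 was higher, at 74.6 ± 4.52 CPM with shITGB5 and 62.1 ± 1.66 CPM with shcontrol (log2 change 0.26, edgeR adjusted p = 1.36e-05). ZBTB20, known from mouse liver as a repressor of Afp, was lower, at 19.01 ± 0.676 CPM with shITGB5 and 26.6 ± 1.23 CPM with shcontrol (log2 change -0.48, edgeR adjusted p = 1.14e-06). NR5A2, a nuclear receptor known as an activator of the AFP gene, was lower too, at 101.1 ± 2.06 CPM with shITGB5 and 126.8 ± 3.57 CPM with shcontrol (log2 change -0.33, edgeR adjusted p = 1.39e-11). These 3 factors did not all change in the same direction. ZHX2, known from mouse as another repressor of Afp, was at 51.6 CPM with shITGB5 and 47.5 CPM with shcontrol and did not pass (edgeR adjusted p = 0.1502). FOXA1 shares 16 exon bases with TTC6 on the opposite strand, whose counts came to 6.51% of those of FOXA1. ZBTB20 shares 15214 of its 31872 exon bases with AC093010.3 on the same strand, and AC093010.3 was at 0 counts. How reads in shared exons were counted is not known, so the level of ZBTB20 is uncertain.

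**Figure D2:**
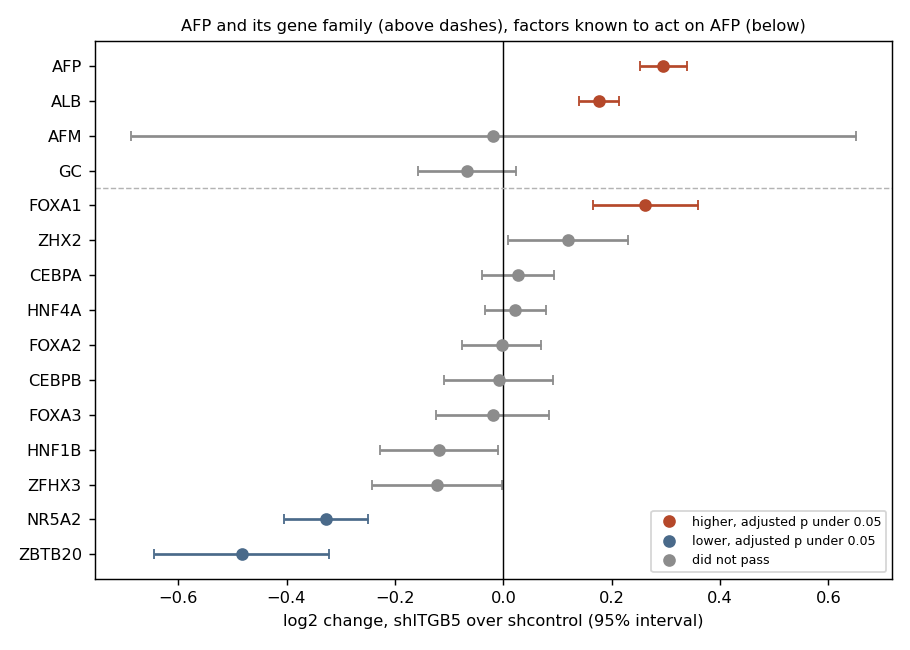
Log2 change with 95% interval (shITGB5 over shcontrol) of AFP and its gene family above the dashed line and of 11 of the 12 transcription factors reported to act on AFP below it. FOXA1 lies to the right at 0.26, NR5A2 and ZBTB20 lie to the left at -0.33 and -0.48, and the other 8 factors shown did not pass.

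The genes whose log2 CPM followed AFP most closely over the 6 libraries were ATF3, a stress-induced transcription factor (Pearson r = 0.999), TFDP1, a partner of E2F factors (r = 0.998), and NUDC, a protein of nuclear migration (r = 0.997). The 6 values pool both groups, so r largely restates the difference between the groups. Of 10884 protein-coding genes compared, 836 had an r of at least 0.9.

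SPINK1 (ENSG00000164266, chr5:147824568-147831786, minus strand) encodes a secreted trypsin inhibitor that is found raised in some liver tumours. It was at 305.6, 299.9 and 316.4 CPM in the shITGB5 libraries, against 267.6, 249.7 and 248.1 CPM in the shcontrol libraries. The groups did not overlap, although the first shcontrol library stood above the other two. The averages were 307 ± 8.37 CPM with shITGB5 and 255 ± 10.8 CPM with shcontrol (SD, n = 3 each), a log2 change of 0.27 (SE 0.029). This is a rise of 20.4% (95% interval 15.7 to 25.4%, edgeR adjusted p = 3.95e-13).

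Of 14 trypsins, membrane serine proteases and inhibitors other than SPINK1, 7 were tested, with 2 higher and 1 lower. The hepatocyte surface protease hepsin (HPN) was higher, at 45.9 ± 2.01 CPM with shITGB5 and 39.3 ± 1.81 CPM with shcontrol (log2 change 0.23, edgeR adjusted p = 0.00356). SPINT1, an inhibitor of matriptase and hepsin, was higher at 98.9 ± 4.37 CPM with shITGB5 and 86.5 ± 4.44 CPM with shcontrol (log2 change 0.19, edgeR adjusted p = 3.33e-04). The matriptase gene ST14 was lower, at 15.7 ± 0.714 CPM with shITGB5 and 19.1 ± 1.46 CPM with shcontrol (log2 change -0.28, edgeR adjusted p = 0.0212). The ST14 call was lost without shITGB5 library 3 (edgeR adjusted p = 0.109), shcontrol library 1 (0.140) or shcontrol library 2 (0.0659).

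IGF2 (ENSG00000167244, chr11:2129112-2149603, minus strand), an imprinted growth factor of the fetus, had few counts in this line. It was at 12.9, 12.7 and 12.9 CPM with shITGB5, against 11.4, 13.4 and 14.4 CPM with shcontrol. The shITGB5 values fell inside the wider spread of shcontrol. The log2 change was -0.02 (-1.40%, 95% interval -15.0 to 14.4%, edgeR adjusted p = 0.943), an interval that lies below the rise of AFP. IGF2-AS overlaps IGF2 on the opposite strand over 333 exon bases and had 240 counts, 18.2% of the 1319 counts of IGF2 over all libraries. Without the strand setting, reads of the pair cannot be told apart there. The second IGF2 row shares 5144 of the 6979 exon bases of the first on the same strand, INS-IGF2 shares 1460, and both were at 0 counts in every library. How reads in shared exons were counted is not known, so the level of IGF2 is uncertain and may be understated.

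In the IGF axis outside IGF2, 15 of 17 genes were tested, with 2 higher and 2 lower. IGFBP3, a carrier of IGFs in serum, was higher at 370.2 ± 7.02 CPM with shITGB5 and 277 ± 7.23 CPM with shcontrol (log2 change 0.42, edgeR adjusted p = 4.32e-26). IGF2R, the receptor that clears IGF2, was higher at 419 CPM with shITGB5 and 379 CPM with shcontrol (log2 change 0.15, edgeR adjusted p = 5.00e-06). The insulin receptor gene INSR was lower, at 122 ± 2.78 CPM with shITGB5 and 143 ± 4.16 CPM with shcontrol (log2 change -0.22, edgeR adjusted p = 1.00e-06). IGF2BP3, an oncofetal RNA-binding protein, was lower at 79.8 ± 3.51 CPM with shITGB5 and 92.5 ± 3.96 CPM with shcontrol (log2 change -0.21, edgeR adjusted p = 9.69e-05). IGF2BP3 shares exon bases with MALSU1 on the opposite strand, whose counts came to 53.6% of its own. H19, the imprinted neighbour of IGF2, had 1, 1 and 4 counts with shITGB5 and 0, 0 and 1 with shcontrol.

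**Figure D3:**
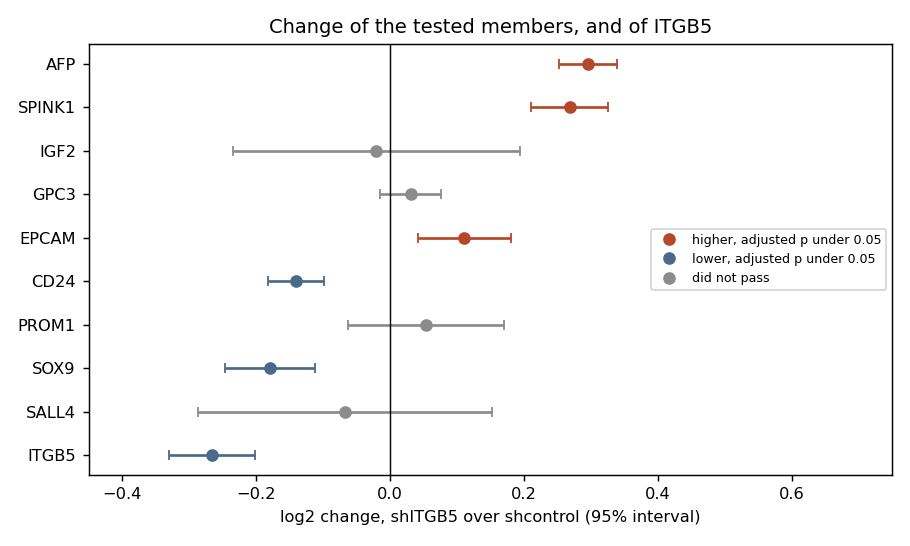
Log2 change with 95% interval (shITGB5 over shcontrol) of the 9 measured markers and of ITGB5. AFP at 0.30 and SPINK1 at 0.27 lie farthest right, CD24 at -0.14 and SOX9 at -0.18 lie to the left of 0, and the intervals of IGF2 and SALL4 are the widest.

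GPC3 (ENSG00000147257, chrX:133535745-133985895, minus strand) encodes glypican-3, a heparan sulphate proteoglycan tethered to the membrane by a lipid anchor. It was at 749.8, 738.8 and 727.6 CPM with shITGB5, against 728.2, 731.8 and 708.7 CPM with shcontrol. The groups overlapped. The log2 change was 0.03, or 2.18% (95% interval -0.981 to 5.44%, edgeR adjusted p = 0.431), an interval that lies below the rises of AFP and SPINK1.

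Of 17 other glypicans, syndecans and heparan sulphate enzymes, 14 were tested, with 2 higher and 2 lower. Of the 4 syndecans, 1 was higher, 1 was lower and 2 did not pass. SDC1 was at 85.7 ± 2.07 CPM with shITGB5 and 62.3 ± 1.81 CPM with shcontrol (log2 change 0.46, edgeR adjusted p = 9.61e-15), and SDC3 was at 49.997 ± 1.503 CPM with shITGB5 and 66.3 ± 1.39 CPM with shcontrol (log2 change -0.41, edgeR adjusted p = 2.02e-10). SDC2 (log2 change 0.002, edgeR adjusted p = 0.980) and SDC4 (log2 change 0.04, edgeR adjusted p = 0.346) did not pass. Of the heparan sulphate chain polymerases EXT1 and EXT2, EXT1 was higher by a log2 change of 0.13 (edgeR adjusted p = 0.0340). Its groups did not overlap, and how its call held under other settings was not examined. EXT2 was lower by a log2 change of -0.15 (edgeR adjusted p = 0.0289), with overlapping groups. The EXT2 call was lost without shITGB5 library 1 (edgeR adjusted p = 0.0825), shITGB5 library 2 (0.125), shcontrol library 2 (0.252) or shcontrol library 3 (0.0624), and by DESeq2 (0.053).

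EPCAM (ENSG00000119888, chr2:47345158-47387601, plus strand) encodes an epithelial adhesion protein of hepatoblasts and bile ducts. It was at 157.7, 152.4 and 154.6 CPM with shITGB5, against 143.6, 146.8 and 139.9 CPM with shcontrol. The groups did not overlap, but the lowest shITGB5 library stood only a little above the highest shcontrol library. The averages were 154.9 ± 2.65 CPM with shITGB5 and 143.4 ± 3.46 CPM with shcontrol (SD, n = 3 each), a log2 change of 0.11 (SE 0.035) or 7.99% (95% interval 2.94 to 13.3%, edgeR adjusted p = 0.0166). The call was lost without shITGB5 library 1 (edgeR adjusted p = 0.0978), shcontrol library 1 (0.0551) or shcontrol library 3 (0.118), with the log2 change between 0.09 and 0.13 on leaving out any 1 library.

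Of 14 partners and cleaving enzymes of EPCAM, 13 were tested, with none higher and 3 lower. The tetraspanin CD9 was at 67.0 ± 4.44 CPM with shITGB5 and 76.7 ± 2.25 CPM with shcontrol (log2 change -0.19, edgeR adjusted p = 0.00142). The sheddase ADAM17 had a log2 change of -0.17 (edgeR adjusted p = 0.0433) and beta-catenin, CTNNB1, one of -0.07 (edgeR adjusted p = 0.0337). Both calls were weak. Among the 6 refits without 1 library, that of ADAM17 was lost in 5 (edgeR adjusted p 0.0536 to 0.189) and stood without shcontrol library 1. It was also lost by DESeq2 (adjusted p = 0.0599) and by edgeR without robust fitting (adjusted p = 0.0503). ADAM17 overlaps IAH1 on the opposite strand, whose counts came to 74.5% of its own. The CTNNB1 call was lost without shITGB5 library 2 (edgeR adjusted p = 0.0767), shITGB5 library 3 (0.123), shcontrol library 1 (0.0887) or shcontrol library 2 (0.102).

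CD24 (ENSG00000272398, chr6:106969831-106975627, minus strand) encodes a small, heavily glycosylated surface protein. It was at 1041.3, 1018.9 and 1046.5 CPM with shITGB5, against 1139.0, 1150.5 and 1133.9 CPM with shcontrol. Every shITGB5 library lay below every shcontrol library, and the ranges within groups were narrow. The averages were 1036 ± 14.7 CPM with shITGB5 and 1141 ± 8.49 CPM with shcontrol (SD, n = 3 each). The log2 change was -0.14 (SE 0.021) or -9.25% (95% interval -11.9 to -6.56%, edgeR adjusted p = 7.33e-08). The pseudogene copies CD24P1 and CD24P2 were at 0 counts in every library, and chromosome Y was left out of the search for copies. The sources used here do not say how reads matching several copies were assigned, which leaves the absolute level of CD24 uncertain.

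PROM1 (ENSG00000007062, chr4:15963076-16084378, minus strand) encodes CD133, a protein of membrane protrusions. It was at 44.1, 44.4 and 48.7 CPM with shITGB5, against 44.0, 46.0 and 42.1 CPM with shcontrol. The groups overlapped, with 1 shITGB5 library above all others. The log2 change was 0.05, or 3.77% (95% interval -4.29 to 12.5%, edgeR adjusted p = 0.642).

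DLK1 (ENSG00000185559, chr14:100725705-100738224, plus strand), a surface protein of hepatoblasts related to Notch ligands, had 0 counts in all 6 libraries. A count of 0 allows up to 0.167 to 0.190 CPM per library (3 counts, counting error only). MEG3, its imprinted neighbour, was also at 0 counts throughout. Of 16 genes of the Notch pathway and the DLK1 locus, 14 were tested, with 1 higher and 1 lower. The Notch ligand JAG1 was higher, at 655 ± 10.6 CPM with shITGB5 and 558 ± 8.51 CPM with shcontrol (log2 change 0.23, edgeR adjusted p = 2.45e-14). NOTCH2 was lower by a log2 change of -0.09 (edgeR adjusted p = 0.0273), a call lost without shITGB5 library 2 (0.0736), shITGB5 library 3 (0.0784) or shcontrol library 2 (0.228). NOTCH2 also has near-identical partial copies in the genome, so its value is uncertain.

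Of 13 other surface and functional markers used for liver cancer stem cells, 9 were tested, with 1 higher and 2 lower. ICAM1 was higher, at 129 ± 3.67 CPM with shITGB5 and 105.4 ± 5.05 CPM with shcontrol (log2 change 0.29, edgeR adjusted p = 1.29e-09). CD47, a surface signal that inhibits phagocytosis, was lower at 49.6 ± 4.60 CPM with shITGB5 and 58.6 ± 0.423 CPM with shcontrol (log2 change -0.24, edgeR adjusted p = 5.61e-04). The hyaluronan receptor CD44 was barely present, at 0.731 ± 0.176 CPM with shITGB5 and 1.68 ± 0.251 CPM with shcontrol (log2 change -1.19, edgeR adjusted p = 0.0123), a call lost without shITGB5 library 1 (0.0822) or shcontrol library 2 (0.0864).

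SOX9 (ENSG00000125398, chr17:72121020-72126420, plus strand) encodes a transcription factor of biliary and progenitor cells. It was at 152.2, 154.7 and 154.8 CPM with shITGB5, against 168.0, 179.4 and 175.2 CPM with shcontrol. All shITGB5 libraries lay below all shcontrol libraries. The averages were 153.9 ± 1.48 CPM with shITGB5 and 174.2 ± 5.75 CPM with shcontrol (SD, n = 3 each). SOX9 changed by -0.18 on the log2 scale (SE 0.034), or -11.7% (95% interval -15.7 to -7.46%, edgeR adjusted p = 1.74e-05).

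Of 10 biliary and progenitor genes other than SOX9, 9 were tested, with 2 higher and 2 lower. ONECUT1 (HNF6), a factor of hepatic and biliary development, was lower at 39.7 ± 0.811 CPM with shITGB5 and 52.8 ± 0.617 CPM with shcontrol (log2 change -0.41, edgeR adjusted p = 4.58e-09). KRT23, a keratin, was higher at 18.1 ± 1.04 CPM with shITGB5 and 13.8 ± 0.502 CPM with shcontrol (log2 change 0.40, edgeR adjusted p = 0.00113). SPP1, the secreted phosphoprotein osteopontin, was higher at 31.0 ± 1.23 CPM with shITGB5 and 26.1 ± 1.40 CPM with shcontrol (log2 change 0.25, edgeR adjusted p = 0.00905), a call lost without shITGB5 library 3 (0.0646) or shcontrol library 1 (0.0887). The biliary keratin KRT19 did not pass, at 490.2 CPM with shITGB5 and 477 CPM with shcontrol (edgeR adjusted p = 0.345).

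SALL4 (ENSG00000101115, chr20:51782331-51802520, minus strand), a zinc-finger factor of embryonic stem cells and the fetal liver, was low. It was at 13.0, 11.6 and 11.99 CPM with shITGB5, against 12.8, 14.3 and 11.3 CPM with shcontrol. The groups overlapped. The log2 change was -0.07, or -4.56% (95% interval -18.0 to 11.1%, edgeR adjusted p = 0.773). The SALL4 pseudogene copies found outside chromosome Y were at 0 counts.

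Of 12 other pluripotency and oncofetal regulators, 8 were tested, with 3 higher and 1 lower. The fall of LIN28B, the oncofetal RNA-binding protein that blocks maturation of let-7 microRNAs, was larger than that of any of the 9 markers. LIN28B was at 163.1, 158.3 and 161.6 CPM with shITGB5, against 281.7, 284.1 and 281.5 CPM with shcontrol (log2 change -0.81, -43.0%, edgeR adjusted p = 2.46e-46). SALL1, a relative of SALL4, was higher at 42.6 ± 3.26 CPM with shITGB5 and 34.1 ± 1.23 CPM with shcontrol (log2 change 0.32, edgeR adjusted p = 4.88e-05). KLF4 was higher at 27.4 ± 1.498 CPM with shITGB5 and 23.0 ± 0.767 CPM with shcontrol (log2 change 0.26, edgeR adjusted p = 0.0119), a call lost without shITGB5 library 1 (0.0675), shITGB5 library 2 (0.0538) or shcontrol library 1 (0.0604). NANOG, a defining factor of pluripotent cells, was at 0 counts in every library, and POU5F1 and SOX2 were below the filter.

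All 14 genes of the NuRD complex, a chromatin remodelling partner of SALL4, were tested, with 2 higher and none lower. The log2 changes were 0.18 for MTA1 (edgeR adjusted p = 0.0329) and 0.11 for GATAD2A (edgeR adjusted p = 0.0177). The call of MTA1 was lost without shITGB5 library 1 (0.164), shITGB5 library 2 (0.0532), shcontrol library 1 (0.115) or shcontrol library 2 (0.185), and that of GATAD2A without shITGB5 library 1 (0.0789) or shcontrol library 2 (0.133). Of 13 other hepatoma markers, 12 were tested, with 2 higher and 1 lower. The WNT antagonist DKK1 was higher, at 255 ± 3.95 CPM with shITGB5 and 205 ± 2.75 CPM with shcontrol (log2 change 0.32, edgeR adjusted p = 3.96e-16). Glutamine synthetase, GLUL, was lower at 329.9 ± 4.77 CPM with shITGB5 and 356 ± 3.53 CPM with shcontrol (log2 change -0.11, edgeR adjusted p = 0.00113). The prothrombin gene F2 was higher by a log2 change of 0.19 (edgeR adjusted p = 0.0386), a call lost on leaving out any 1 of the 6 libraries (edgeR adjusted p 0.0521 to 0.199).

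The 12 lists together held 155 genes, of which 130 were tested, 19 were higher (14.6%) and 17 were lower (13.1%). Over all genes tested the shares were 8.54% higher and 6.96% lower. Of the 102 list genes with a mean of at least 10 CPM, 18.6% were higher and 15.7% lower, against 13.1% and 10.3% of all genes at that level. The lists were chosen with earlier results of these data known. These shares are therefore descriptions and do not test whether the lists changed more than other genes.

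**Figure D4:**
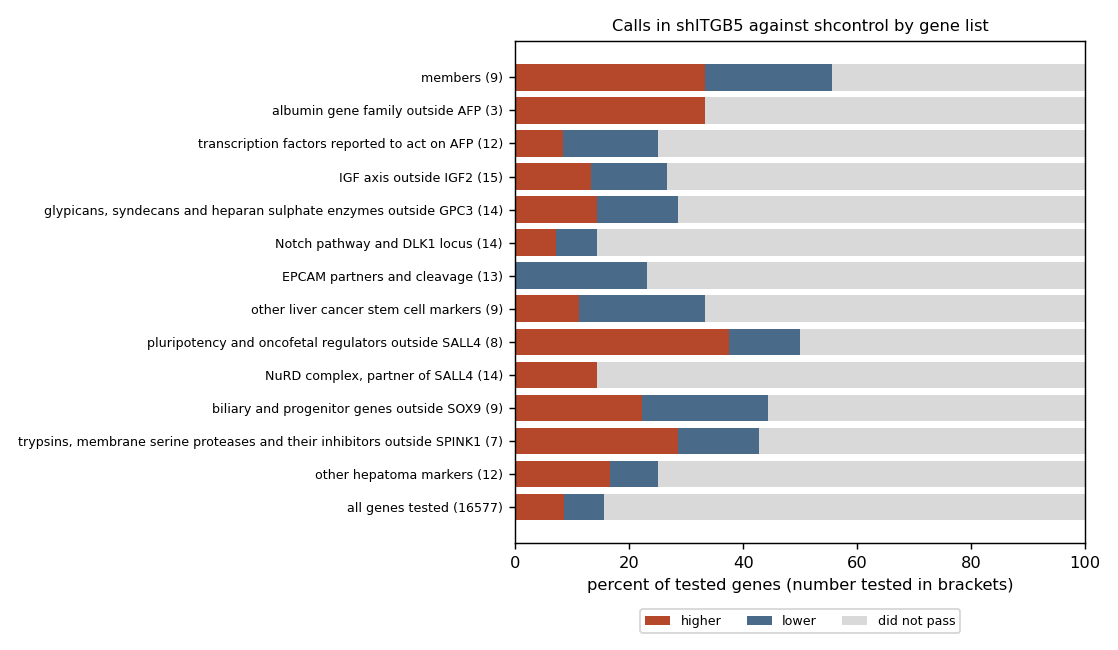
Percent of tested genes that were higher or lower with shITGB5 (edgeR adjusted p under 0.05) for the 9 measured markers, for 12 related gene lists and for all 16577 genes tested, with the number tested in brackets. Nearly every list holds calls in both directions, the exceptions being the albumin family and the NuRD complex with none lower and the EPCAM partners with none higher.

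Levels per length set the markers in order. With shITGB5 the FPKM order was CD24, AFP, GPC3, SPINK1, EPCAM, SOX9, PROM1, SALL4 and IGF2, and no neighbours overlapped in range. With shcontrol GPC3 and AFP stood in the opposite order but overlapped in range, as did SALL4 and IGF2. CD24 averaged 334 ± 4.74 FPKM with shITGB5 and 368 ± 2.74 FPKM with shcontrol. AFP averaged 318 ± 5.75 FPKM with shITGB5 and 259.5 ± 3.23 FPKM with shcontrol. At the low end, IGF2 averaged 1.84 ± 0.017 FPKM with shITGB5 and 1.87 ± 0.224 FPKM with shcontrol, and the 9 levels as counted spanned 182-fold with shITGB5 and 197-fold with shcontrol. The lower end of the span and the last place of IGF2 rest on its uncertain level. Likewise, the upper end of the span and the first place of CD24 rest on the uncertain level of CD24. For PROM1 (7434 bases) and IGF2 (6979 bases) the length used equalled all annotated exon bases, which can exceed the transcript expressed. The order between genes thus depends on these lengths and may differ per transcript.

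**Figure D5:**
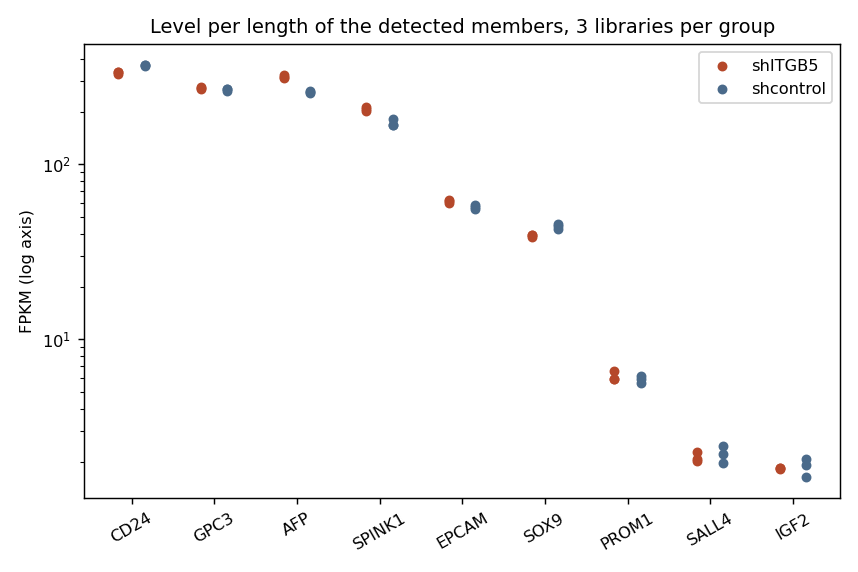
FPKM (log axis) of the 9 measured markers in each library, shITGB5 left of shcontrol for each gene. CD24, GPC3, AFP and SPINK1 form the top of the range, and IGF2 and SALL4 the bottom.

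As counted per length, the opposite changes of AFP and CD24 brought their levels closer. How close they stand rests on the lengths used and on the uncertain level of CD24. The ratio of AFP to CD24 per length was 0.965, 0.952 and 0.940 in the shITGB5 libraries, against 0.708, 0.706 and 0.699 in the shcontrol libraries. The ratio of SOX9 to EPCAM was 0.618, 0.650 and 0.641 in the shITGB5 libraries, against 0.749, 0.782 and 0.802 in the shcontrol libraries. Neither ratio overlapped between groups. That follows from the changes already given, since the genes of each pair moved in opposite directions without overlap, and it is no further evidence. Summed over the markers, the level was 3454 to 3534 CPM with shITGB5 and 3308 to 3386 CPM with shcontrol. The abundant AFP, CD24 and GPC3 dominate this sum, and CD24 and SOX9 fell, so it does not describe a rise of the markers as a group.

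The 3′ UTRs of the markers were searched for 4 words of 7 bases, since earlier results on these data had linked these words to the direction of change. A single protein-coding transcript per gene was taken from GENCODE release 29, and other transcripts were not searched. Of 13403 tested protein-coding genes, 13237 had a 3′ UTR in that transcript. Among 2089 genes with AGACCAA or GACCAAA, 17.7% were lower and 6.80% higher, and among genes with neither 6.25% were lower and 10.9% higher. Among 443 genes with TCGGAGA or CGGAGAA, 27.1% were higher and 6.32% lower, and among genes with neither 9.70% were higher and 8.11% lower. These values are descriptions and share their source with the results that chose the words. Of the 9 measured markers, 3 held a word. The sites are shown 5′ to 3′ with the word in capitals, to set the letters beside the changes reported above. CD24 held GACCAAA at base 1596 of a 3′ UTR of 1830 bases. The 2 overlapping words of IGF2 began at bases 744 and 745 of 3875, and the first is in capitals. SALL4 held CGGAGAA at base 1858 of 1934.
CD24: agtcttgatGACCAAAgtccttttt
IGF2: gacccagtaAGACCAAaggagggga
SALL4: tatgatctaCGGAGAAacccctgta

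CD24 was lower, whereas IGF2 and SALL4 did not pass. AFP, SPINK1 and EPCAM, which were higher, held none of the 4 words in the 3′ UTRs searched, of 554, 93 and 421 bases. SOX9 (2033 bases), which was lower, held none either, nor did GPC3 (379 bases) and PROM1 (1159 bases). A shorter 3′ UTR has fewer places for a word, and length was not taken into account.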

How the data were processed

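The sample labels name 3 RNA-seq libraries with shITGB5 and 3 with shcontrol, from Huh7 cells. Columns were assigned to these groups by reading code S as ITGB5 hairpin and NC as control hairpin, which the labels do not spell out. Although its name says FPKM, the deposited table contains whole numbers, which were analysed as the authors' raw counts per gene. It also gives each gene's length in bases, as deposited by the authors. Which aligner, counter and strand setting were used is not given in the sources used here. Identifier, position and strand of all 58735 genes equalled those of GENCODE release 29, whose build is GRCh38.

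Genes were kept by edgeR's filterByExpr, scaled by TMM (factors 0.998 to 1.00) and compared by edgeR's quasi-likelihood test with robust fitting (edgeR 4.0.16, R 4.3.3), two-sided, Benjamini-Hochberg adjusted over 16577 genes, at 0.05 with no fold minimum. CPM carry TMM scaling, and FPKM were computed here from the counts and gene lengths. Alternatives used DESeq2 1.42.0 and limma 3.58.1 and other scalings and filters. The edgeR step was tested on simulated data. All replicate pairs within a group differed beyond counting noise (chi-square per degree of freedom 2.02 to 2.32).

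The members and lists were chosen with earlier results of these data known. Named genes were ITGB5, the 10 members, up to 3 called genes with the largest change from each list, and the 3 protein-coding genes with a mean CPM of at least 5 that followed AFP most closely. IGF2R, EXT1, SDC2, SDC4, ZHX2, GC, AFM, KRT19, H19, MEG3, NANOG, POU5F1, SOX2 and the marker genes ALB, LUM, KDR and MS4A1 were named after their values were seen. The values of 1 factor in the list for AFP are not reported here. The limit for a count of 0 covers counting error only.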

Additional observations from a re-analysis of the deposited data

How the results depend on the processing

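The directions and calls of AFP, SPINK1, CD24 and SOX9 held under other scalings (RLE, upper quartile, library totals), no low-count filter, a mean of at least 1 CPM, DESeq2, limma, no robust fitting, the replicate block and leaving out any 1 library. EPCAM's call was lost without shITGB5 library 1 or shcontrol library 1 or 3. Over these settings 2043 (without shcontrol library 2) to 2596 genes (mean CPM filter) passed, against 2569 as reported. A test against a fold of 1.2 left 148 genes, 0 members higher and 0 members lower, and ITGB5 (log2 change -0.27) did not pass it, since these changes are near or below that fold. Leaving out 1 library moved IGF2's log2 change over -0.1148 to 0.0549, positive only without shcontrol library 3, and SALL4's over -0.1499 to 0.0153, positive only without shcontrol library 2. Their low counts limit the precision of these 2 genes. Same-numbered libraries did not deviate together (correlations 0.028, -0.000125 and -0.0174), so the main fit did not pair them. These values cannot tell whether libraries of the same number were handled together. With the replicate block 2499 genes passed and no member's call changed (EPCAM adjusted p = 0.0255, edgeR). Of the list genes, CTNNB1 lost its call with the block (edgeR adjusted p = 0.0678), and EXT2, NOTCH2, ADAM17, CTNNB1, ST14 and F2 lost theirs without a filter. ADAM17 also lost its call by DESeq2 (adjusted p = 0.0599) and without robust fitting (edgeR adjusted p = 0.0503), and EXT2 by DESeq2.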
